A study of Rattus norvegicus with 11 samples.

Results

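The tripartite motif (TRIM) family was examined in rat soleus, a slow postural muscle of the hind limb. Members were the rows of the count table whose symbol is Trim followed by digits, with Trim63 left out, which gave 45 of 16810 rows. The family was chosen by a measured value, the p-value of Trim35 by maternal diet, one of the smallest of all genes. Differences by maternal diet are therefore given as a description and support nothing. The animals were male Sprague Dawley rats, 12 months old, with no litter giving more than 1 animal. For 5 animals (the high-fat group) the mother ate a high-fat, high-sucrose diet, and for 6 (the control group) she ate a control diet, given in the series' design text as 23.5% against 7% fat and 20% against 10% sucrose. These diets began 3 weeks before mating and lasted through pregnancy and lactation. Weaning was at day 21, after which both groups ate chow. Poly(A) RNA of whole soleus was sequenced, and the tissue holds nerve, vessel, immune and connective tissue cells beside the fibres.

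TRIM proteins carry, in most members, a RING finger, B-box zinc fingers and a coiled coil, followed by a carboxy-terminal part that differs between subfamilies. The RING finger makes most of them E3 ubiquitin ligases, which pass ubiquitin from an E2 enzyme to a target protein. In striated muscle the family is best known for the MuRF proteins of the sarcomere and for the membrane repair protein MG53, and elsewhere for antiviral defence and for co-repression of transcription.

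Libraries held 10156225 to 15362013 counts, and 12333 to 12886 rows had at least 1 count in a library. Slow-fibre markers fitted the labelled tissue. Their summed level ran from 70393 to 100677 CPM (read counts scaled to library size and by edgeR's trimmed mean of M values, TMM) in the high-fat group and from 81200 to 99502 CPM in the control group, and none of the 8 was at 0. Of 15 macrophage marker symbols, older names included, 14 had a row. These markers summed to 314 to 1971 CPM in the high-fat group, with the highest value in animal 5, and to 381 to 1128 CPM in the control group. Of the 13 macrophage markers tested, all had a log2 fold change above 0 (high-fat minus control, median 0.68), and none passed the test across all genes. Nerve and Schwann cell markers summed to 123 to 315 CPM in the high-fat group and to 129 to 290 CPM in 5 control animals, against 1963 CPM in control animal 5. All 6 nerve markers had a log2 fold change below 0 (median -1.54). Of 11 fast-fibre markers, 10 were below 0 and 1 above (median -0.74). Of the 8 slow-fibre markers, 7 were below 0 and 1 above (median -0.08). No nerve, fast-fibre or slow-fibre marker passed. The part of fibre type, macrophages or nerve in the members' differences was not tested. High-fat animal 1 had the largest fat share, 16.27% of body weight. In bulk muscle, fewer cells of a type and less RNA per cell cannot be told apart.

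To show regulatory sequence beside the values, the 250 bases before the RefSeq start (build GRCr8) are given for 2 muscle members and 1 interferon-linked member. They were chosen after their motifs were seen. Capitals mark a MEF2 site in Trim72 (chr1:192043970-192044219, plus strand), an MCAT element in Trim54 (chr6:30978476-30978725, minus strand) and 2 overlapping interferon-stimulated response elements (ISRE) in Trim21 (chr1:166399372-166399621, minus strand).
Trim72: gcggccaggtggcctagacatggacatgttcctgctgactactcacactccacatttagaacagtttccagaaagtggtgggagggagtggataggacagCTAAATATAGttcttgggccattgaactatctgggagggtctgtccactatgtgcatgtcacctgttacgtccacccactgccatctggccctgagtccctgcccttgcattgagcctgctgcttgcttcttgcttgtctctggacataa
Trim54: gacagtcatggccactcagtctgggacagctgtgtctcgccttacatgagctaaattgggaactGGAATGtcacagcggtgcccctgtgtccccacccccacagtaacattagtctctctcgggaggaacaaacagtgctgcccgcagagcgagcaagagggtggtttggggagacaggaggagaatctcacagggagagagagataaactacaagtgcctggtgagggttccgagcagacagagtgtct
Trim21: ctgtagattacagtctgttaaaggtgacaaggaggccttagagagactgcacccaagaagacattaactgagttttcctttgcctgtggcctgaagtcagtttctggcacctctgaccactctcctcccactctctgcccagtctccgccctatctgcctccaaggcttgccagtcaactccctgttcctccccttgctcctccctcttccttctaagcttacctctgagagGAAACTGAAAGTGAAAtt

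Of the 45 members, 36 had a promoter in that table, and motifs were searched on both strands of the same 250 bases. The MEF2 consensus, bound by a transcription factor family of muscle, was found in 2 of the 36 (Trim59 and Trim72) and in 2.96% of all 33469 promoters. The MCAT element CATTCC, bound by TEAD factors, was found in 7 of 36 and in 12.1% of all promoters. The ISRE, searched as GAAA, any 2 bases and GAAA, was found in 3 of 36 (Trim21, Trim26 and Trim40) and in 3.41% of all promoters. The E-box CANNTG, bound by myogenic and other basic helix-loop-helix factors, was found in 15 of 36 and in 65.5% of all promoters. The MEF2 match of Trim72 began 150 bases, the MCAT match of Trim54 186 bases and the first ISRE match of Trim21 18 bases before the start. These matches describe letters and do not show binding.

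Of the 45 members, 30 passed the low-count filter and 15 did not. Among those that passed, 4 averaged at least 100 CPM over the 11 animals (Trim35, Trim54, Trim55 and Trim72), 17 lay between 10 and 100 CPM, 8 between 1 and 10 CPM and Trim36 below 1 CPM. CPM is not per transcript length, and no transcript lengths were used here, so these classes order members by reads and not by transcripts. All members together took 0.194 to 0.240% of counted reads in the high-fat group and 0.204 to 0.252% in the control group. Trim54, Trim72 and Trim35 supplied 66.1 to 72.4% of these TRIM reads in the high-fat group and 69.0 to 73.6% in the control group, a share of reads and not of transcripts.

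Of the 15 members below the filter, Trim31, Trim40 and Trim42 had no count in any library, which allows up to 3 counts per library, or 0.195 to 0.295 CPM before TMM scaling, counting error only. Trim67 had the most counts of these, 100 over all libraries with 3 to 23 per library, and averaged 0.964 ± 0.603 CPM (SD) over the 5 high-fat animals and 0.514 ± 0.225 CPM (SD) over the 6 controls. Trim36, with the fewest reads of those that passed, had 0.499, 1.07, 1.34, 0.446 and 0.478 CPM in high-fat animals 1 to 5 and 0.490 to 1.32 CPM with a median of 0.774 CPM in the control group (log2 fold change -0.25 ± 0.39). With 1 animal left out and Trim36 still past the filter, that value ran from -0.56 (without high-fat animal 3) to -0.09 (without high-fat animal 4). It was 0.13 without high-fat animals 4 and 5 together. Without control animal 2, 3 or 4 Trim36 failed the filter and was not fitted. Trim36 and Trim67, with Trim9 and Trim46, form the role group named here after the microtubule-binding COS box, which the MuRF proteins carry too. Trim9, Trim46 and Trim67 are known mainly from neurons. Trim9 had 6 counts in all and Trim46 had 39. The remaining members below the filter (Trim6, Trim10, Trim17, Trim29, Trim50, Trim52, Trim58, Trim66 and Trim71) had 1 to 60 counts in all. Of 12 counts of Trim66, 8 were in control animal 1.

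The muscle members come first among those measured. Trim54 (MuRF3) binds microtubules and sarcomeric proteins in striated muscle. Its level was 716, 753, 647, 745 and 606 CPM in high-fat animals 1 to 5 and 538 to 758 CPM with a median of 670 CPM in the control group. The groups overlapped, and the log2 fold change was 0.06 ± 0.11 (SE). Trim55 (MuRF2), which associates with the sarcomere and with microtubules, had 93.9, 108, 96.9, 105 and 117 CPM in high-fat animals 1 to 5 and 92.1 to 126 CPM with a median of 102 CPM in the control group. Its groups overlapped too, with a log2 fold change of -0.04 ± 0.10. For each of the 2 genes the sign of the difference turned in 1 of 22 alternatives (other settings, or 1 or 2 animals left out).

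Trim72 (MG53) seeds membrane repair patches together with caveolin-3 and dysferlin, and in mice it ubiquitylates insulin receptor substrate 1. Its level was 519, 645, 614, 681 and 490 CPM in high-fat animals 1 to 5 and 566 to 811 CPM with a median of 685 CPM in the control group. High-fat animals 1 and 5 lay below every control animal and the other 3 within the control range. The log2 fold change was -0.20 ± 0.12 and ran from -0.25 to -0.14 without 1 animal. The highest level belonged to control animal 5, the one rich in nerve markers, and without it the log2 fold change was -0.16.

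Trim35, a member with a B30.2 domain, binds the M2 form of pyruvate kinase in human liver cancer cells. Its level was 210, 280, 264, 271 and 282 CPM in high-fat animals 1 to 5. In the control group it was 337, 353, 312, 308, 328 and 332 CPM in animals 1 to 6. All 5 high-fat animals lay below all 6 control animals, and the lowest, animal 1, stood well below its own group. The 5 high-fat animals averaged 262 ± 29.8 CPM (SD) and the 6 controls 328.5 ± 16.5 CPM (SD). The log2 fold change was -0.33 ± 0.10 (SE), and it was -0.26 without high-fat animal 1. Over the 22 alternatives it ran from -0.39 to -0.26. Of all genes tested, 0.37% had groups that did not overlap (0.166% with the high-fat group lower), and among the 30 members Trim35 was the only one. Since this difference chose the family, nothing is read from it.

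**Figure D1:**
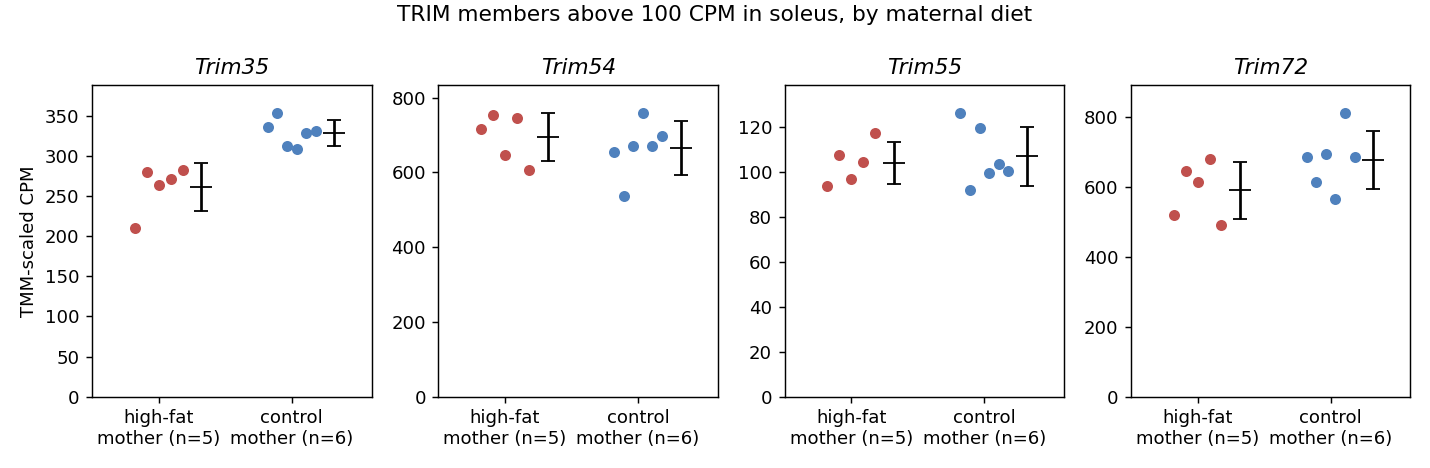
Levels of the 4 TRIM members above 100 CPM in each animal (points), with the group mean and SD beside them (bar), in offspring of high-fat (n = 5) and control mothers (n = 6); the axes start at 0. For Trim35 the highest high-fat animal, at 282 CPM, lies below the lowest control animal, at 308 CPM, while the groups overlap for Trim54, Trim55 and Trim72.

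Across the 30 members the differences by maternal diet were small. The log2 fold change was above 0 in 11 and below 0 in 19, with a median of -0.03, beside a median of 0.00393 over all 10814 genes tested, of which 49.1% were below 0. Without Trim35 the median was -0.02. In the quasi-likelihood test of edgeR, adjusted over all genes by Benjamini-Hochberg, 0 of 30 members passed, as did 0% of all genes. At an unadjusted p under 0.05 there was 1 member, Trim35, beside 4.84% of all genes (3.45% higher and 1.39% lower). DESeq2 and edgeR's likelihood ratio test also called 0 members, where they called 7 and 8 genes in all, and limma voom called 0 genes. Of the 30 members, 17 changed their sign at least once. The other 13 kept it under every alternative in which they were tested, 7 of them lower, Trim35 included, and 6 higher. The alternatives share most of their animals, and the share of all genes was not counted, so nothing is read from these counts.

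**Figure D2:**
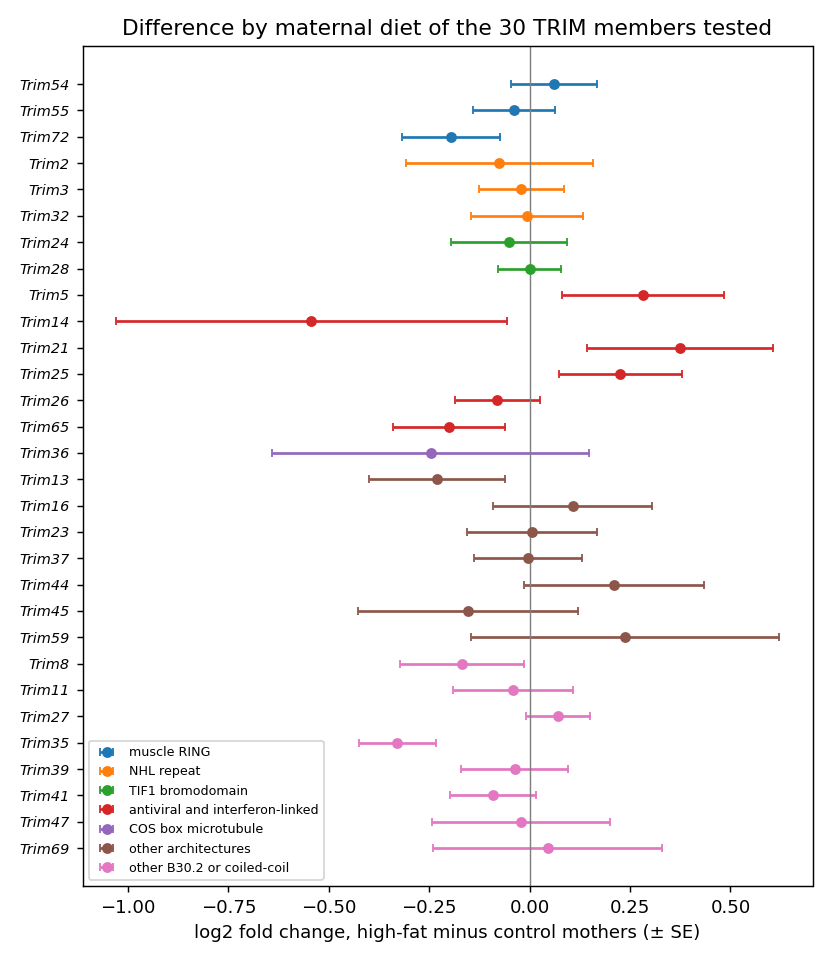
Log2 fold change (high-fat minus control mothers) of the 30 TRIM members tested, with 1 SE on each side, coloured by role group. Trim35 lies at -0.33 with a narrow error, and Trim14, at -0.54, has the widest error (0.49).

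The interferon-linked group, with roles in sensing and blocking viruses, had 6 members tested, of which 3 were above 0 and 3 below (median log2 fold change 0.07). Trim21, a cytosolic antibody receptor, had 4.83, 4.05, 3.27, 7.71 and 4.12 CPM in high-fat animals 1 to 5 and 2.69 to 4.49 CPM with a median of 3.95 CPM in the control group. Only high-fat animals 1 and 4 lay above the control range. The log2 fold change was 0.37 ± 0.23, and 0.13 without high-fat animal 4.

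Trim25, the ligase that activates the RNA sensor RIG-I, had 10.5, 13.3, 8.71, 13.8 and 10.4 CPM in high-fat animals 1 to 5 and 8.24 to 12.1 CPM with a median of 9.22 CPM in the control group. The groups overlapped and the log2 fold change was 0.23 ± 0.15, or 0.14 without high-fat animal 4. Trim5, a relative of the primate factor that blocks retroviral capsids, lies in a cluster of close relatives in the rat, among which short reads may be split, so its counts are uncertain. It had 40.6, 24.7, 20.6, 38.4 and 20.1 CPM in high-fat animals 1 to 5 and 20.1 to 31.1 CPM with a median of 22.1 CPM in the control group. High-fat animals 1 and 4 lay above all others, and the other 3 lay between 20.1 and 24.7 CPM, near the controls. The log2 fold change was 0.28 ± 0.20, and 0.13 without animal 1 or 0.16 without animal 4.

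Trim14, an adaptor of antiviral signalling, had 1.498, 1.599, 1.76, 4.21 and 2.03 CPM in high-fat animals 1 to 5 and 1.10 to 8.98 CPM with a median of 2.35 CPM in the control group. Its log2 fold change was -0.54 ± 0.49, and 0.07 without control animal 1, the animal at 8.98 CPM, or -0.92 without high-fat animal 4. Trim65, a ligase for the RNA sensor MDA5, was at -0.20 ± 0.14 (9.32, 14.0, 9.46, 11.0 and 12.5 CPM in high-fat animals 1 to 5, and 11.0 to 14.7 CPM with a median of 13.1 CPM in the control group). Trim26 was at -0.08 ± 0.11, with 17.1, 18.0, 18.5, 23.0 and 19.5 CPM in high-fat animals 1 to 5 and 17.8 to 23.5 CPM with a median of 19.9 CPM in the control group. Both genes overlapped between the groups, and the value of Trim26 lay between -0.15 and -0.04 with high-fat animal 4 or control animal 1 left out. Of 17 interferon-response genes tested outside the family, 9 had a log2 fold change above 0 and 8 below, with a median of 0.01, and none passed. Their summed level was 431 to 540 CPM in the high-fat group and 444 to 548 CPM in the control group.

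The members with NHL repeats differed little. Trim32, whose human gene is mutated in a limb-girdle muscular dystrophy, had 14.0, 15.5, 17.3, 15.3 and 16.2 CPM in high-fat animals 1 to 5 and 10.4 to 19.1 CPM with a median of 16.5 CPM in the control group (log2 fold change -0.01 ± 0.14). Trim3, a relative known mainly from brain, had 23.9, 32.5, 31.5, 31.0 and 26.4 CPM in high-fat animals 1 to 5 and 26.9 to 34.9 CPM with a median of 28.5 CPM in the control group (-0.02 ± 0.11). Trim2, a ligase for neurofilament light chain, was at -0.08 ± 0.23, and at 0.04 without control animal 3. Annotated loci of Trim32 and Astn2 overlap in GRCr8, as do those of Trim28 and Chmp2a, Trim37 and Ppm1e, and Trim39 and Rpp21, and whether the counts used strand is not stated, so reads of such pairs may be mixed.

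Of the transcriptional co-regulators of the TIF1 class, Trim28 (KAP1), the co-repressor of KRAB zinc finger proteins, had 65.3, 70.2, 65.8, 72.7 and 71.6 CPM in high-fat animals 1 to 5. In the control group it lay between 62.0 and 74.0 CPM with a median of 69.6 CPM. Its mean was 69.1 ± 3.35 CPM (SD) over the 5 high-fat animals and 69.1 ± 4.47 CPM (SD) over the 6 controls, with a log2 fold change of 0.000373 ± 0.08 that changed sign in 13 of 22 alternatives. Trim24, a co-regulator with a bromodomain, had 8.99, 9.17, 8.04, 7.27 and 6.98 CPM in high-fat animals 1 to 5 and 7.02 to 10.9 CPM with a median of 7.95 CPM in the control group (-0.05 ± 0.14, and 0.04 without control animal 6).

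Among members of other architectures, Trim16, a protein of lysosomal damage responses that lacks a RING finger, had 47.0, 59.5, 73.4, 78.0 and 83.8 CPM in high-fat animals 1 to 5. Control animals lay between 36.9 and 89.4 CPM with a median of 64.5 CPM, and the log2 fold change was 0.11 ± 0.20. It ran from -0.00832 (without control animal 4) to 0.23 (without control animal 3). Trim45, which holds a filamin-type repeat, had 46.7, 69.3, 58.1, 38.4 and 56.3 CPM in high-fat animals 1 to 5. In control animals 1 to 6 it was 69.6, 74.2, 77.4, 22.7, 41.0 and 73.4 CPM, so the high-fat animals lay within the control range (log2 fold change -0.15 ± 0.27). For Trim45 that value was -0.32 if control animal 4 was left out, -0.05 if high-fat animal 4 was, and 0.03 with a covariate from the letter in animal names. Trim59, a transmembrane member, had 1.75, 0.853, 2.76, 1.02 and 2.33 CPM in high-fat animals 1 to 5 and 0.564 to 2.28 CPM with a median of 1.496 CPM in the control group (0.24 ± 0.38). Its value was 0.02 without high-fat animal 3 and 0.40 without control animal 1. Trim8, which belongs to the B30.2 or coiled-coil group, binds the cytokine inhibitor SOCS1. It had 35.0, 37.4, 47.7, 29.2 and 50.0 CPM in high-fat animals 1 to 5 and 36.8 to 55.7 CPM with a median of 42.9 CPM in the control group (-0.17 ± 0.16). That value lay between -0.27 and -0.07 with high-fat animal 5 or 4 left out. In each of these 4 genes the groups overlapped.

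The other members are given by their ranges. Trim13, anchored in the endoplasmic reticulum, was at -0.23 ± 0.17 (3.16 to 4.66 CPM in the high-fat group and 3.51 to 5.16 CPM in the control group) and stayed below 0 in all 22 alternatives. Trim44, which lacks a RING finger, was at 0.21 ± 0.22 (6.33 to 9.25 CPM in the high-fat group and 4.16 to 10.0 CPM in the control group), and between 0.11 and 0.39 with high-fat animal 5 or control animal 3 left out. Trim23, which ends in an ARF-type GTPase domain, and Trim37, which carries a MATH domain, were at 0.00632 ± 0.16 and -0.00392 ± 0.14. The remaining B30.2 or coiled-coil members Trim11, Trim27, Trim39, Trim41, Trim47 and Trim69 lay between -0.09 (Trim41) and 0.07 (Trim27), and in none did the groups separate.

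**Figure D3:**
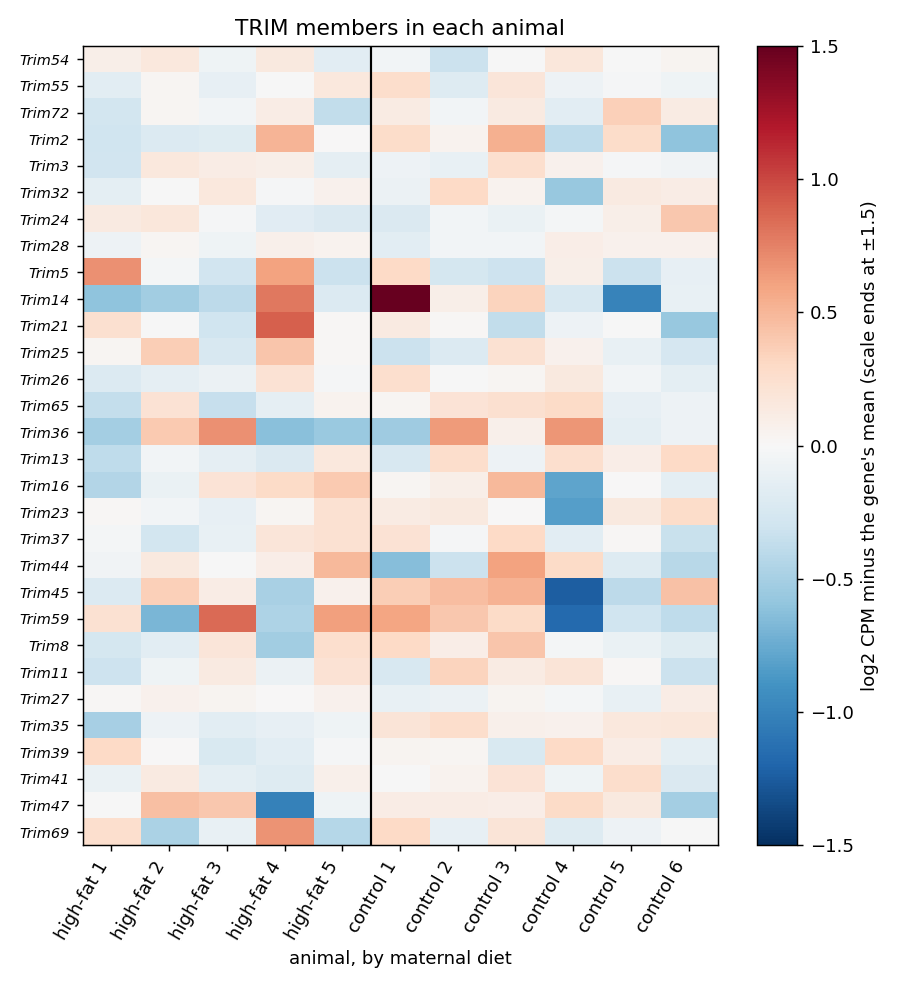
Heat map of the 30 TRIM members tested (rows, by role group) in each animal (columns, high-fat left of the line), as log2 CPM minus the gene's mean over animals; the colour scale ends at ±1.5. Control animal 4 is the lowest of the 11 for 5 members, Trim16, Trim23, Trim32, Trim45 and Trim59, and control animal 1 is high for Trim14.

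The animals of one group often differed more than the groups did. Control animal 4 was the lowest of the 11 for 5 members, with 36.9 CPM of Trim16, 19.6 CPM of Trim23, 10.4 CPM of Trim32, 22.7 CPM of Trim45 and 0.564 CPM of Trim59. It was also the lowest for 16.0% of all genes tested and the highest for 12.8%. High-fat animal 1 and control animal 6 were the lowest for 5 members each too, beside 11.3% and 12.0% of all genes. Control animal 3 was the highest for 7 members, beside 8.43% of all genes, and the lowest for 0. Control animals 4 and 6 were the highest for 4 members each. By summed CPM, which abundant genes dominate, fast-fibre markers were highest in control animal 4, at 47279 CPM, against 11090 to 38732 CPM in the high-fat group and 10493 to 41773 CPM in the other control animals. By the mean centred log2 CPM of the same markers, control animals 2 (1.29) and 5 (1.00) stood above control animal 4 (0.74). High-fat animal 4 was the lowest of all for Trim47, at 18.0 CPM against 34.7 to 49.8 CPM in the other high-fat animals and 25.6 to 44.3 CPM in the control group.

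Spread was measured as edgeR's biological coefficient of variation (BCV), the relative spread between animals beyond counting noise. The median over the 30 members was 0.179, beside 0.191 over all genes tested, and 20 members lay below the median of genes of like level (the same decile of mean log2 CPM). Trim27, a repressor first found fused to the Ret kinase, had a BCV of 0.108 beside 0.157 for its decile, among the lowest values there (percentile 0.185). Its level was 22.5 to 23.5 CPM in the high-fat group and 20.6 to 24.1 CPM in the control group. Trim28 followed with a BCV of 0.117 (percentile 1.67).

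At the other end, Trim14 had a BCV of 0.532 (percentile 94.9 of its decile) and a highest level 8.19 times the lowest. Trim45 had 0.319 (percentile 95.3), Trim47 0.261 (percentile 89.8) and Trim16 0.239 (percentile 88.2). Trim59 (0.391) and Trim36 (0.340) had a large BCV at low counts, near the 0.350 of their decile. The muscle members were steadier, at 0.146 for Trim54, 0.140 for Trim55 and 0.160 for Trim72, each below the median of its decile. Trim35 had 0.135 and is counted among the 20 members below the median of their decile. A small spread favours the small p that chose the family, so nothing is read from this value. Trim54 varied 1.41-fold and Trim55 1.37-fold between the lowest and the highest of the 11 animals. Trim63 (MuRF1), the paralog left out, ran from 192 to 592 CPM in the high-fat group and from 133 to 457 CPM in the control group.

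**Figure D4:**
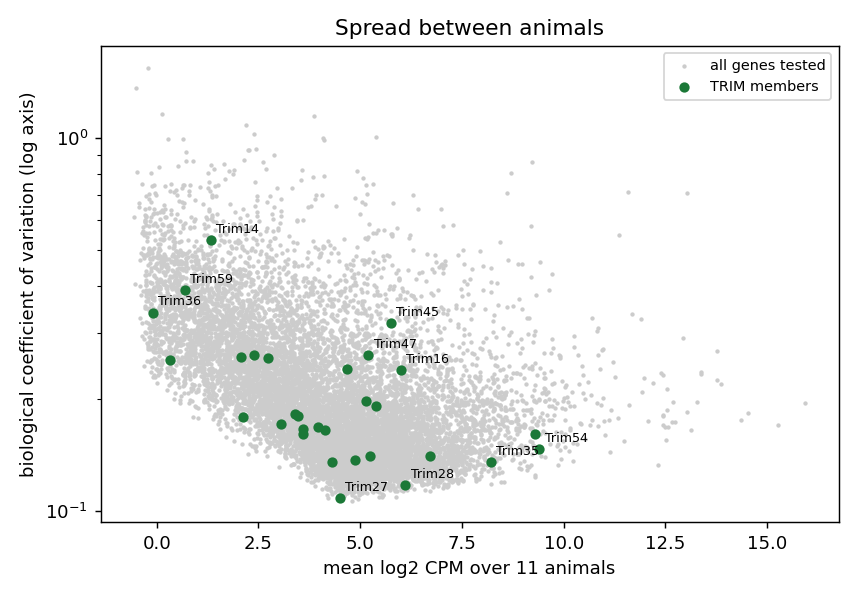
Biological coefficient of variation (log axis) against mean log2 CPM over the 11 animals for all genes tested (grey) and the 30 TRIM members (green), some of them named. Trim27 and Trim28 lie along the lower edge of the cloud, and Trim14, Trim45, Trim47 and Trim16 near its upper part.

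A relation that did not enter the choice of the family is that with the animals' own body fat. Total fat as a percentage of body weight was fitted across all genes with maternal diet in the model. No member passed after adjustment over all genes (edgeR's quasi-likelihood test, smallest adjusted p = 0.247), and 1 gene in all did (0.00925%), or 0 without high-fat animal 1 or 5. At an unadjusted p under 0.05 there were 5 of 30 members, beside 12.2% of all genes (5.67% higher and 6.52% lower). With more fat Trim5 was higher and Trim16, Trim8, Trim11 and Trim35 were lower. The 5 include Trim35, which led to the choice of the family. Its small spread favours a small p here too, so nothing is read from its slope.

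The slope of Trim5 was 0.09 ± 0.02 on the log2 scale per percentage point of fat and did not pass (edgeR adjusted p = 0.247). In the high-fat group the level was 20.1 CPM at 4.507% fat, 24.7 CPM at 7.117%, 20.6 CPM at 8.603%, 38.4 CPM at 10.55% and 40.6 CPM at 16.27%. In the control group it was 20.4 CPM at 3.741%, 21.0 CPM at 4.79%, 20.1 CPM at 5.626%, 31.1 CPM at 6.284%, 26.9 CPM at 7.171% and 23.3 CPM at 8.515%. The 2 fattest animals had the highest levels, and the 4 animals with the least fat, from both groups, lay between 20.1 and 21.0 CPM. The slope lay between 0.08 and 0.11 without 1 animal, 0.11 without high-fat animal 1. Summed macrophage markers were also high in high-fat animals 1 and 4 (1158 and 1193 CPM) and in control animal 1 (1128 CPM). High-fat animal 5, with the most of them (1971 CPM), had 20.1 CPM of Trim5. The part of macrophages in this slope was not tested.

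The slope of Trim16 was -0.08 ± 0.03 (edgeR adjusted p = 0.370) and between -0.09 and -0.06 without 1 animal. That of Trim8 was -0.05 ± 0.02 (edgeR adjusted p = 0.386) and -0.10 without high-fat animal 1. Trim11 had -0.05 ± 0.02 (edgeR adjusted p = 0.392). Trim35 had -0.03 ± 0.01 (edgeR adjusted p = 0.401), and without high-fat animal 1, the fattest, the slope was -0.00806. The muscle members had slopes of 0.02 ± 0.02 for Trim54, -0.02 ± 0.02 for Trim55 and -0.00409 ± 0.02 for Trim72. Without high-fat animal 1 these slopes were 0.04, -0.03 and 0.03, so that of Trim72 changed sign.

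**Figure D5:**
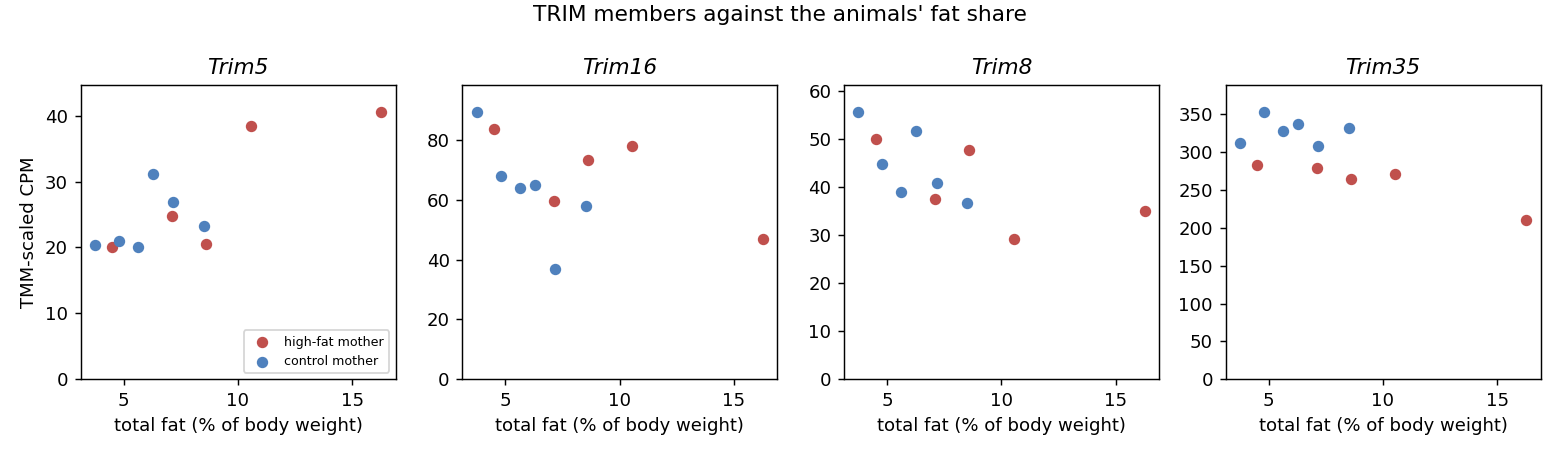
TMM-scaled CPM of Trim5, Trim16, Trim8 and Trim35 against total fat as a percentage of body weight, 1 point per animal, coloured by maternal diet; the vertical axes start at 0. Trim5 is highest in the animals at 10.55% and 16.27% fat, and the lowest Trim35 level belongs to the animal at 16.27%.

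Plasma insulin, known for 10 of the animals, was fitted in the same way. No member passed (smallest edgeR adjusted p = 1.000), 0 of 30 had an unadjusted p under 0.05, and 1.06% of all genes did. Trim55 had the smallest p of the members, with a log2 change of -0.24 ± 0.16 per ng/ml. Trim72, which acts on insulin signalling proteins in mice, had -0.09 ± 0.20 per ng/ml.

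Levels of 6 members (Trim35, Trim54, Trim55, Trim72, Trim21 and Trim25) were also set against summary scores of fast-fibre, macrophage and interferon-response genes over the 11 animals. None of the 18 relations passed (smallest adjusted p = 0.656 for Pearson's r and 0.671 for Spearman's rho, permutation tests). The largest coefficient was that of Trim72 with the macrophage score (r = -0.51, permutation p = 0.105; rho = -0.35, permutation p = 0.285), and r was -0.31 without the 2 animals farthest from the median score, high-fat animals 2 and 5. Trim25 and the interferon score had r = 0.41 (permutation p = 0.204; rho = 0.47, permutation p = 0.147), and r was 0.33 without the 2 farthest animals. Leaving out the 2 farthest animals raised some other coefficients and turned the sign of others. Trim54 with the macrophage score went from -0.13 to 0.39, and Trim55 with the interferon score from -0.39 to 0.37. For Trim35, r with the interferon score was 0.62 in place of 0.26, and r with the macrophage score was -0.50 in place of -0.33. Within the 6 control animals these r were -0.40 and -0.25. The largest r there, of either sign, were those of Trim55 with the macrophage score (0.82) and the fast-fibre score (-0.78). Trim25 with the interferon score (0.72) followed. They were picked from 18, rest on 6 animals and were not tested. Maternal diet was not in the correlations over 11 animals. The difference of Trim35 by diet chose the family, so nothing is read from the r of Trim35.

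Genes that work with the family were described by maternal diet in the same fit. Of 14 ubiquitin-activating and conjugating enzymes, 12 had a row, 8 above 0 and 4 below (median log2 fold change 0.04), and 0 passed. Uba1, the main ubiquitin-activating enzyme, averaged 183 ± 16.5 CPM (SD) over the 5 high-fat animals and 170.0 ± 10.8 CPM (SD) over the 6 controls (log2 fold change 0.10 ± 0.09). Of 14 symbols for known partners and targets of muscle TRIM proteins and Trim35, older names included, 10 had a row. Of these, 3 were above 0 and 7 below, with a median of -0.03, and 0 passed. Cav3 and Pkm are named because they had the smallest p by maternal diet in this list, so their direction is no separate result. Cav3, the caveolin that Trim72 works with in membrane repair, averaged 227 ± 32.9 CPM in the high-fat group and 282 ± 58.8 CPM in the control group (-0.31 ± 0.15, edgeR adjusted p = 0.974). Pkm, the pyruvate kinase gene whose M2 form Trim35 binds, averaged 41.1 ± 6.50 CPM in the high-fat group and 47.9 ± 6.89 CPM in the control group (-0.22 ± 0.13, edgeR adjusted p = 0.974). Counts by gene do not separate the M2 form from other forms. Of 7 TRIM-type genes under other symbols 4 had a row, 3 above 0 and 1 below, and 0 passed.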

How the data were processed

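The table the authors deposited holds raw counts of reads by gene symbol for the 11 animals. The submitters' processing notes name FastQC, BWA, HTSeq and edgeR; no version, genome build, annotation or strand setting is stated in the sources at hand. Animals were matched to columns by their names and to groups by diet. They are numbered in accession order, partly unlike the numbers in the column names, and nothing in the labels says that either set pairs animals. Members and lists were chosen with earlier results of these data known.

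From the deposited counts, filterByExpr kept 10814 of 16810 rows. These were scaled by TMM (factors 0.8965 to 1.124) and tested with the quasi-likelihood F test of edgeR, adjusted by Benjamini-Hochberg over all genes at a threshold of 0.05. The model held maternal diet, alone or with fat share or insulin. Standard errors were derived from the log2 fold change and F. Marker scores are means of centred log2 CPM (prior count 2), and correlations used 100000 random pairings. Named members are Trim32, Trim35, Trim54, Trim55, Trim72 and those of highest CPM in each role group, smallest p by diet in each direction or largest BCV. Trim13, Trim23, Trim44, Trim47 and others are named by range or value only. Uba1, Cav3 and Pkm were picked from their lists by a small p by diet. All 45 members matched current RefSeq symbols, and promoters come from RefSeq, GRCr8. Fits were first tested on simulated data. Total counts of 10156225 to 15362013 limit precision for members under 1 CPM.

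Alternatives were scaling by library size alone, by upper quartiles or by RLE, prior count 0.5, no filter or a stricter one (1 CPM in 5 libraries), DESeq2, likelihood ratio and voom tests, a covariate from the letter in animal names, covariate fits without maternal diet, the number in the column names as a block, and each animal left out. Software was Python 3.11.15 (SciPy 1.17.1, NumPy 2.4.6, pandas 2.3.3, matplotlib 3.10.9) and R 4.3.3 with DESeq2 1.42.0, limma 3.58.1 and edgeR 4.0.16.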

Additional observations from a re-analysis of the deposited data

Results flagged for a closer look

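Of 60 groups of values checked (30 members in each maternal diet group), 5 held an animal far from the rest of its group, where chance flags about 1 in 20. Trim35 stood at 210 CPM in high-fat animal 1, against 264 to 282 CPM in the other 4 high-fat animals. Trim14 stood at 4.21 CPM in high-fat animal 4, against 1.498 to 2.03 CPM in the other high-fat animals. It also stood at 8.98 CPM in control animal 1, against 1.10 to 3.01 CPM in the other control animals. Trim23, which carries an ARF-type GTPase domain, stood at 19.6 CPM in control animal 4, against 35.3 to 42.4 CPM in the other control animals. Trim47 stood at 25.6 CPM in control animal 6, against 38.9 to 44.3 CPM in the other control animals.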

How the results depend on the processing

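Under every alternative 0 TRIM members passed by maternal diet, by fat share or by insulin, and 1 member had an unadjusted p under 0.05 by maternal diet. Genes called by maternal diet numbered 0 with the main test, 7 with DESeq2 and 8 with edgeR's likelihood ratio test. By fat share 1 gene was called, and 0 to 1 without 1 animal (0 without high-fat animal 1 or 5). The median log2 fold change of the members ran from -0.06 to -0.00 over all alternatives, the last with library size alone. Members passing the filter numbered 30, or 42 with no filter and 29 with the stricter one. No relation with a marker score passed in any alternative, including without high-fat animals 4 and 5 together, which was chosen after seeing the data. Counting symbols with a letter after the digits gave 46 members. The sample labels give no replicate numbers, but the column names do, and 5 of them occur in both groups. With that number as a replicate block over these 10 animals, chosen after seeing the data, 0 members and 0 genes passed, 1 member had an unadjusted p under 0.05, and the median log2 fold change of the members was -0.04. The correlation of deviations from the group means was over 0.1 in 0 of 5 pairs, and 0 of 10 animals correlated best with their own number. The pairs thus showed no shared deviation, but 5 pairs are too few to exclude a weak one.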
